A study of Mus musculus with 31 samples.

Results

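The cyclins and the CDK inhibitors of the Cip/Kip family were followed as a group of 10 genes, chosen by name: the D-type cyclins Ccnd1, Ccnd2 and Ccnd3, the E-type cyclins Ccne1 and Ccne2, cyclin A2 (Ccna2), cyclin B1 (Ccnb1), p21 (Cdkn1a), p27 (Cdkn1b) and p57 (Cdkn1c). All 10 were present among the 20704 genes counted for ribosome-protected fragments (RPFs), the stretches of mRNA shielded by a ribosome, and among the 24593 genes counted for total RNA. All 10 also passed the filter on low counts, as part of 9457 genes in RPF and 11708 in total RNA, Cdkn1c only through its counts in 1 of the 2 lines.

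The cells were a mouse skin squamous cell carcinoma (SCC) line, HRasG12V:TgfbrIIfl/fl in the labels. The study instead lists both lines as HRasG12V TgfbrII D/D. CRISPR knocked out the endogenous Eif2s1 alleles, judged in the study by frameshift indels. Eif2s1 encodes eIF2α, and a PGK promoter-driven, Myc-tagged cDNA took its place in both lines: wild type in S51, which can mount the integrated stress response (ISR), and without the phosphorylated serine in S51A, which is ISR-null. Each line received DMSO vehicle or the proteasome inhibitor bortezomib at 100 nM for 4.5 h according to the labels, whereas the study elsewhere gives a slightly shorter time. S51 vehicle had 3 RPF libraries and the remaining groups had 4 each, and total RNA was sequenced in 4 lysates of every group. Each genotype was represented by single-cell clones whose results the study pools, and the labels do not name the clone of a library, so that a difference between S51 and S51A cannot be told apart from one between clones. The study calls its replicates technical in one place and independent in another, and p-values therefore measure the spread between these libraries, whatever its source.

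Cyclins are the activating subunits of cyclin-dependent kinases (CDKs). D-type cyclins with CDK4 and CDK6 start the passage through G1 by phosphorylating the RB protein, E-type cyclins with CDK2 complete it, cyclin A2 acts in S and G2 phase, and cyclin B1 with CDK1 drives entry into mitosis. The Cip/Kip inhibitors bind these complexes and restrain them. Most of these proteins are short-lived and removed by the proteasome, which bortezomib blocks, and RNA counts say nothing of that step.

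Total counts ran from 1038826 to 4902237 per RPF library and from 18758668 to 22994713 per total RNA library. No pair of replicates held the same library: they differed from each other by chi-square values per gene of at least 1.66 in RPF and 2.78 in total RNA. One library stood apart: S51 vehicle replicate 2 differed from replicates 1 and 3 of its group by 13.2 and 18.4 chi-square units per gene, while these differed from each other by 2.06. The called RPF changes of the 10 genes in S51 are therefore also given without it. All groups were tested in 1 fit, so that this library also enters the adjusted p of comparisons that do not use it. Transcripts of the targeted gene, Eif2s1, lay between 279 and 314 CPM (counts scaled to a common library total) in all 16 total RNA libraries and do not separate the lines. Counts per gene cannot tell the transgene from transcripts of the edited locus. Its RPFs were lower in S51 than in S51A under vehicle, at 161, 81.0 and 171 CPM against 212 to 259 CPM (log2 difference -0.73, adjusted p = 0.0023). The lowest of these is replicate 2, without which the difference was -0.48 (adjusted p = 0.00026) and under the fold. The 8 keratinocyte markers summed to at least 24055 CPM in every RPF library, and the markers of fibroblasts, immune cells, endothelium and melanocytes to at most 17.4 CPM per list. In bulk lysates fewer cells of one kind and less RNA per cell cannot be told apart.

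Levels are CPM of libraries scaled by TMM. Differences were tested in edgeR (quasi-likelihood test) and p-values adjusted over all genes by the Benjamini-Hochberg method (adjusted p), and a change was called where the adjusted p was below 0.05 and the fold above 1.5. Translational efficiency (TE) is the ratio of RPF to total RNA, tested as an interaction over all 31 libraries. Bortezomib changed RPFs of 5 of the 10 genes in S51, 1 higher and 4 lower, where 18.6% of all genes were called. In S51A it changed 2, 1 in each direction, where 10.9% of all genes were called. The median RPF log2 fold change of the 10 genes was -0.39 in both lines, beside a median of 0.00 in S51 and -0.01 in S51A over all genes. The S51A count and median include Cdkn1c, whose RPF counts were 0 in every S51A library and hold no measured change.

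**Figure D1:**
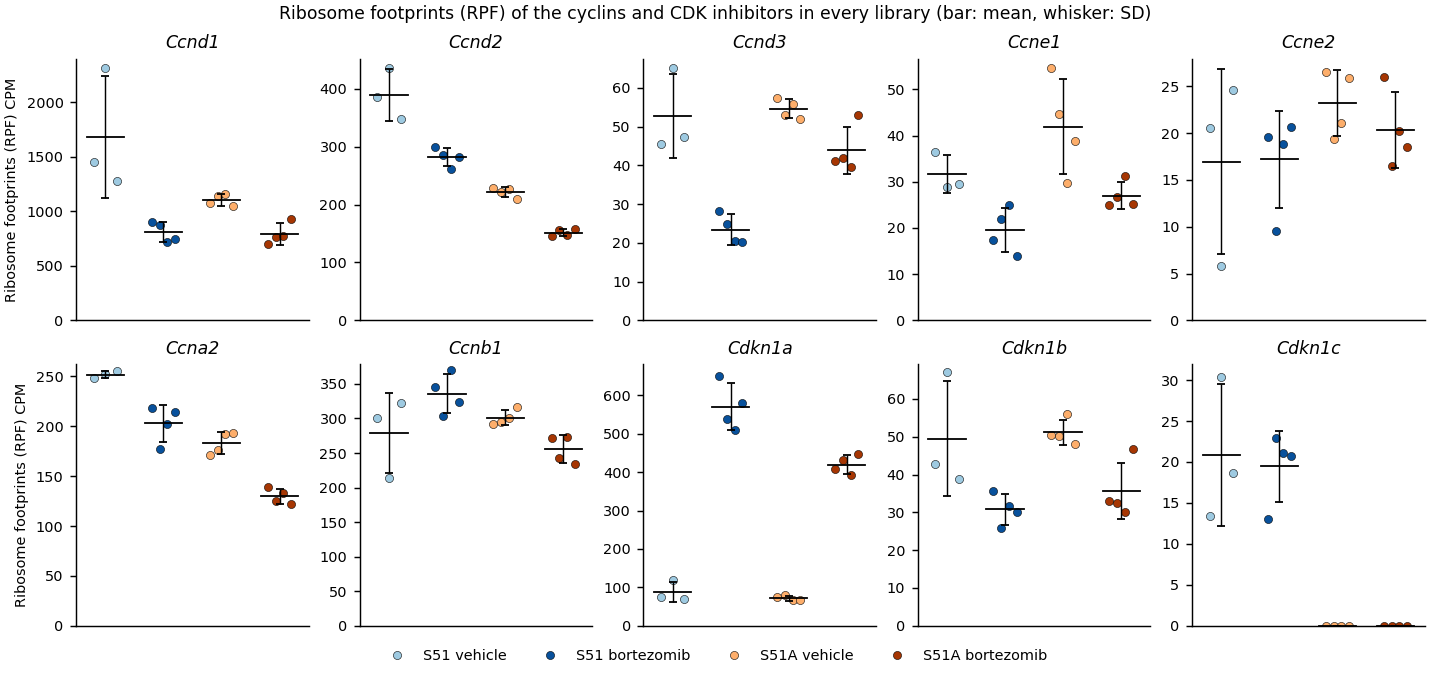
RPF level (CPM, linear axes from 0) of each gene in each of the 15 RPF libraries, with points for libraries, a bar for the group mean and whiskers for the SD. Cdkn1a is far higher in all bortezomib libraries of both lines, Cdkn1c is at 0 in all S51A libraries, and the highest Ccnd1 point, 2317 CPM, is S51 vehicle replicate 2.

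Cdkn1a, the p53-responsive inhibitor p21, showed the largest response of the 10 genes in both lines and in both kinds of library. Its RPF level was 74.6, 119 and 69.8 CPM in the S51 vehicle libraries and 651, 539, 511 and 580 CPM after bortezomib. In S51A it was 76.0, 78.8, 66.3 and 66.4 CPM with vehicle and 407, 431, 391 and 448 CPM with bortezomib. Every treated library lay above every vehicle library, without overlap. The increase was 6.60-fold in S51 (log2 fold change 2.72 ± 0.15 SE, adjusted p = 8.8e-12) and 5.84-fold in S51A (2.55 ± 0.13, adjusted p = 6.1e-12). Without S51 vehicle replicate 2 the S51 value was 2.98.

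Total RNA of Cdkn1a rose alongside. Vehicle libraries held 23.04, 24.4, 21.6 and 29.8 CPM in S51 and 26.4, 25.0, 25.6 and 23.6 CPM in S51A. Bortezomib libraries held 163, 149.6, 142 and 149.6 CPM in S51 and 143, 119, 117 and 123 CPM in S51A. The fold change was 6.09 in S51 (log2 2.61 ± 0.08) and 4.996 in S51A (2.32 ± 0.08). A difference between the lines was not detectable under vehicle (log2 difference -0.02, 95% interval -0.19 to 0.15), and under bortezomib S51 was 1.202-fold higher (adjusted p = 0.00095), below the fold required. The response to bortezomib differed between the lines by 0.29 in total RNA (0.07 to 0.51, adjusted p = 0.055) and by 0.18 in RPF (-0.21 to 0.56, adjusted p = 0.69), neither of which was called. Without S51 vehicle replicate 2, the RPF difference was 0.44 with an adjusted p of 0.040.

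Cdkn1a had the highest mean ratio of RPF to total RNA of the 10 genes in each of the 4 groups, at 2.59 to 4.87 over the 15 lysates. Between genes, besides translation, this ratio can also depend on the stretch counted in each kind of library. A change of this ratio with bortezomib was not detectable, with a log2 change in TE of 0.13 (-0.19 to 0.46) in S51 and 0.23 (-0.08 to 0.53) in S51A. The S51 value depends on vehicle replicate 2, whose ratio was 4.87 beside 3.24 and 3.23 in replicates 1 and 3 and 3.60 to 3.98 after bortezomib. Without that library the S51 change was 0.37 (adjusted p = 0.086), which was not called. Per kilobase of coding sequence counted, which allows genes to be compared, Cdkn1a held 209 ± 64.1 RPF CPM in S51 vehicle (SD, n = 3), well below Ccnd1 at 1882 ± 622. After bortezomib Cdkn1a was the most occupied of the 10 in S51, at 1358 ± 145 CPM per kilobase (SD, n = 4) beside 907 ± 100.4 for Ccnd1. In S51A the same pair stood at 999 ± 60.0 and 887 ± 110.5 CPM per kilobase, with overlapping libraries.

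Because Cdkn1a is known as a p53 target, the bases before each protein-coding gene were searched for the p53 consensus, a pair of decamers without a spacer, in the RefSeq sequence of mm10 (GRCm38.p6). None of the 10 genes held an exact match within 3000 bases, as 16 of 21774 genes (0.0735%) did. With 1 letter allowed to differ outside the 4 central letters of each decamer, a rule chosen after the exact search, Cdkn1a was the only one of the 10 with a match, beside 0.409% of all genes and 0 of 21 other p53 targets. The match ends 32 bases before the first base of the annotated gene, and starts of single transcripts were not examined. It is shown with flanking bases, at chr17:29090924-29090951 on the plus strand. The 20 positions of the consensus are in capitals, 1 of which differs from it.
Cdkn1a: tcagGAACATGTCTTGACATGTTCagcc
A match describes letters and not binding.

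Of 21 other p53 targets, listed with earlier results of these data known, many rose as well. The list is one of names, and which regulator acted on these genes was not tested. In RPF 13 were called higher in S51 and 12 in S51A, and in total RNA 14 and 12, with none lower in either line. Over all genes 7.38% and 4.19% were called higher in RPF and 5.70% and 4.54% in total RNA. Without S51 vehicle replicate 2, the RPF count in S51 was 15. Their median log2 fold change was 1.17 in S51 and 0.92 in S51A in RPF, beside 0.00 and -0.01 over all genes. Gdf15, a secreted stress cytokine, rose by 4.37 in S51 and 3.05 in S51A on the log2 scale of RPF. Trp53inp1, a nuclear p53 partner, rose by 4.29 and 3.75, and Mdm2, the ubiquitin ligase of p53, by 3.06 and 2.48. Mdm2 was also the one gene of the list called for TE in both lines, at 0.87 in S51 and 0.66 in S51A. The responses differed between the lines for Gadd45a, a DNA damage and stress gene, by 2.01 in RPF and 1.72 in total RNA. In total RNA 4 of the 21 differed, all more positive in S51, where 2.09% of all genes were called in either direction and 1.34% higher. Genes whose total RNA most resembled that of Cdkn1a over the 16 libraries were Mybl1, Polk and Tnfrsf10b, each with a Pearson r of 0.995. Such r values follow the shared treatment groups and are given as a description.

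**Figure D2:**
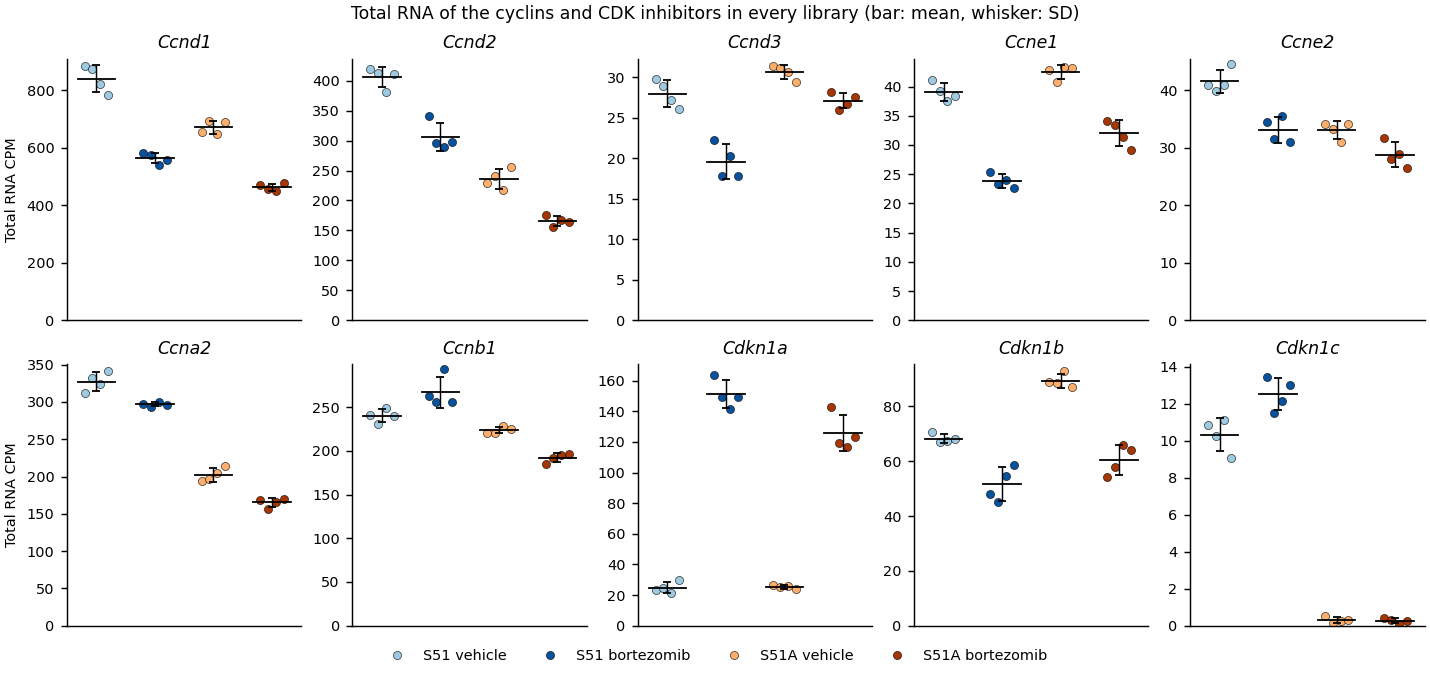
Total RNA level (CPM, linear axes from 0) of each gene in each of the 16 total RNA libraries, drawn as points with the group mean as a bar and the SD as whiskers. Ccna2 and Ccnd2 are higher in S51 than in S51A with either treatment, and Ccnb1 moves up with bortezomib in S51 and down in S51A.

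Cdkn1b, encoding p27, was lower after bortezomib, where Cdkn1a was higher. Its RPF level was 42.8, 67.1 and 38.8 CPM in S51 vehicle and 35.6, 25.8, 31.7 and 30.2 CPM in S51 bortezomib. In S51A the vehicle libraries held 50.4, 50.1, 55.9 and 48.2 CPM and the bortezomib libraries 33.1, 32.6, 30.1 and 46.7 CPM. Treated libraries lay below vehicle libraries in both lines without overlap. The RPF decrease was called in S51 (-0.64 ± 0.19, adjusted p = 0.013) and stayed under the fold in S51A (-0.51 ± 0.16, adjusted p = 0.028). The S51 call rests on single libraries, at -0.38 (adjusted p = 0.068) without S51 vehicle replicate 2 and -0.58 without S51 bortezomib replicate 2. In S51A the call appeared, at -0.67, without bortezomib replicate 4. The total RNA change was -0.40 in S51 and -0.56 in S51A (adjusted p = 8.5e-06 and 5.3e-08), both under 1.5-fold, although without S51A bortezomib replicate 3 or 4 the second was called at -0.60 and -0.59. A TE change of Cdkn1b was not detectable, at -0.20 (-0.60 to 0.19) in S51 and 0.07 (-0.27 to 0.40) in S51A.

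Cdkn1c, encoding p57, separated the lines far more than the treatments. Its RPF counts were 38, 63 and 75 in S51 vehicle and 18 to 56 in S51 bortezomib, and they were 0 in all 8 S51A libraries. Total RNA counts were 216 to 267 in the 8 S51 libraries and 2 to 12 in the 8 S51A libraries. Against a floor of 3 counts in each S51A library, RPF was at least 21.5-fold higher in S51 under vehicle and at least 15.1-fold higher under bortezomib, bounds that cover counting error only. Total RNA was higher in S51 by a log2 difference of 5.02 ± 0.19 under vehicle and 5.49 ± 0.20 under bortezomib. Bortezomib left Cdkn1c below the call in S51, at -0.05 (-0.64 to 0.53) in RPF and 0.28 (0.07 to 0.49) in total RNA. The S51 total RNA libraries did not overlap, at 9.08 to 11.1 CPM with vehicle and 11.5 to 13.5 CPM with bortezomib. With S51A at 0 in RPF, no TE can be stated for that line.

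Cdkn1c lies in an imprinted region of chromosome 7, at chr7:143458339-143461059 on the minus strand (mm10). Its neighbours were examined after its values had been seen. Of 18 other genes tested within 1000 kb, 0 were called higher in S51 in total RNA under vehicle and 2 under bortezomib, Cars at 0.60 and Kcnq1ot1 at 0.65, where 6.29% and 8.23% of all genes were called higher. The nearest neighbours, Slc22a18 and Phlda2, differed by -0.46 and -0.38 under vehicle, in the direction opposite to Cdkn1c and under the fold. Tnfrsf26, 149 kb away by gene start, and Tnnt3 were called lower in S51 under vehicle, at -1.32 and -2.10, where 11.2% of all genes were called lower. Under bortezomib 4 were called lower, these again, Tnfrsf23 at -0.62 and Dhcr7 at -0.77, where 11.7% of all genes were called lower.

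Among the D-type cyclins, Ccnd1 and Ccnd3 fell in RPF in S51, whereas no D-type cyclin passed the fold in S51A. Ccnd1 was read at 1452, 2317 and 1279 CPM in S51 vehicle and at 904, 871, 723 and 746 CPM in S51 bortezomib. In S51A it was read at 1075, 1140, 1158 and 1047 CPM with vehicle and at 702, 764, 771 and 933 CPM with bortezomib. The groups did not overlap in either line. The decrease was 2.08-fold in S51 (-1.05 ± 0.14, adjusted p = 8.1e-06), or -0.76 without S51 vehicle replicate 2, and 1.39-fold in S51A (-0.48 ± 0.13, adjusted p = 0.012). The responses differed by -0.57 (-0.98 to -0.17, adjusted p = 0.13), which was not called. Without S51 vehicle replicate 2 this difference was -0.28, and without replicate 3 it was -0.76 and called.

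Total RNA of Ccnd1 stayed under the fold in both lines. It was 884, 873, 821 and 785 CPM in S51 vehicle and 583, 577, 542 and 557 CPM after bortezomib, against 656, 692, 650 and 690 CPM and 470, 457, 449 and 476 CPM in S51A. The log2 fold change was -0.57 ± 0.04 in S51 and -0.54 ± 0.04 in S51A, each a little under 1.5-fold. Without S51 bortezomib replicate 1 or 2 or S51 vehicle replicate 3 or 4 the first was called, at -0.59, -0.59, -0.59 and -0.61. The TE change of Ccnd1 was -0.48 in S51 (-0.79 to -0.17, adjusted p = 0.040), under the fold, and 0.06 in S51A (-0.24 to 0.36). The S51 value was -0.19 (adjusted p = 0.28) without vehicle replicate 2 and -0.67, called, without vehicle replicate 3. The difference of the TE responses, -0.54 with an adjusted p of 0.25, was likewise called at -0.72 without vehicle replicate 3.

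**Figure D3:**
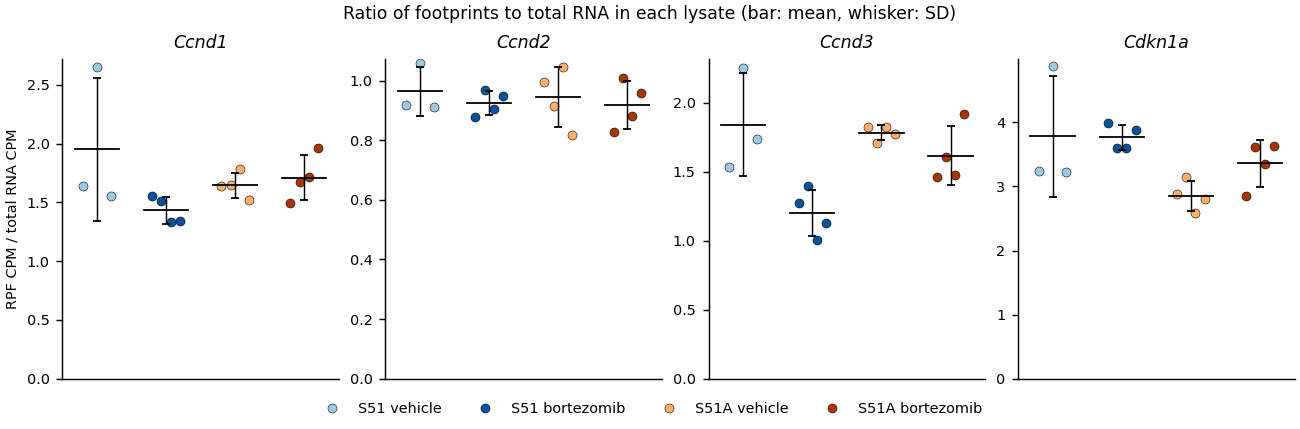
Ratio of RPF CPM to total RNA CPM in each of 15 lysates for the D-type cyclins and Cdkn1a, as points with the group mean and SD. The 4 S51 bortezomib lysates lie lowest for Ccnd3, the S51 vehicle groups of Ccnd1, Ccnd3 and Cdkn1a each hold 1 high lysate, and Ccnd2 is level.

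Ccnd3 was the gene whose RPF response differed between the lines. Its RPF level was 45.6, 65.1 and 47.2 CPM in S51 vehicle and 28.3, 24.8, 20.4 and 20.1 CPM in S51 bortezomib. In S51A it was 57.3, 53.1, 55.9 and 52.0 CPM with vehicle and 41.2, 41.8, 39.5 and 52.9 CPM with bortezomib. The S51 bortezomib libraries lay below all others, while the S51A groups overlapped. RPF fell 2.27-fold in S51 (-1.18 ± 0.16, adjusted p = 1.1e-05), or -1.03 without S51 vehicle replicate 2, and was -0.31 ± 0.13 in S51A (adjusted p = 0.11). With that library left out of the shared fit, the S51A value was -0.30 with an adjusted p of 0.035, under the fold. The difference of the responses was called, at -0.88 ± 0.21 (adjusted p = 0.029). It was the 1 call among the 10 genes, where 1.86% of all genes were called in either direction and 0.983% lower. It was -0.73 and still called without S51 vehicle replicate 2. Its adjusted p rose to between 0.063 and 0.096 without S51 bortezomib replicate 3 or 4, S51A bortezomib replicate 4 or S51A vehicle replicate 2 or 4, with values from -0.86 to -0.77.

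In total RNA the Ccnd3 response was -0.52 ± 0.07 in S51 and -0.18 ± 0.06 in S51A, and their difference of -0.34 (-0.53 to -0.15) had an adjusted p of 0.0096 without reaching the fold. Without S51 bortezomib replicate 1 the S51 value was called at -0.59. The ratio of RPF to total RNA was 1.53, 2.25 and 1.74 in S51 vehicle and 1.27, 1.40, 1.01 and 1.13 in S51 bortezomib, without overlap. In S51A it was 1.71 to 1.82 with vehicle and 1.46 to 1.92 with bortezomib. Ccnd3 was the only one of the 10 genes called for TE in any comparison, in S51 (-0.66 ± 0.17, adjusted p = 0.0082). Over all genes 5.28% were called there in either direction and 4.24% lower. In S51A its TE change was -0.12 (-0.39 to 0.15), and the difference between the lines, -0.54 (-0.98 to -0.10), was not called (adjusted p = 0.26). The S51 call was lost at -0.52 without vehicle replicate 2 and at -0.58 (adjusted p = 0.061) without bortezomib replicate 3. It was also lost at -0.51 with library sizes alone and at -0.67 (adjusted p = 0.055) with only the S51 groups in the fit.

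Ccnd2 behaved differently from both. Its log2 fold changes with bortezomib in S51 and S51A were -0.47 and -0.55 in RPF and -0.41 and -0.51 in total RNA, none past the fold. It was higher in S51 throughout. RPF stood at 385, 437 and 348 CPM in S51 vehicle against 228, 221, 228 and 210 CPM in S51A vehicle, a 1.76-fold difference (adjusted p = 4.1e-07), or 0.73 on the log2 scale without S51 vehicle replicate 2. Under bortezomib it stood at 299, 285, 262 and 283 against 145, 157, 147 and 158 CPM, 1.86-fold (adjusted p = 6.7e-08). Total RNA showed the same at 1.72-fold and 1.85-fold, and a TE difference was not detectable, at 0.03 (-0.16 to 0.23) under vehicle and 0.01 (-0.19 to 0.21) under bortezomib.

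**Figure D4:**
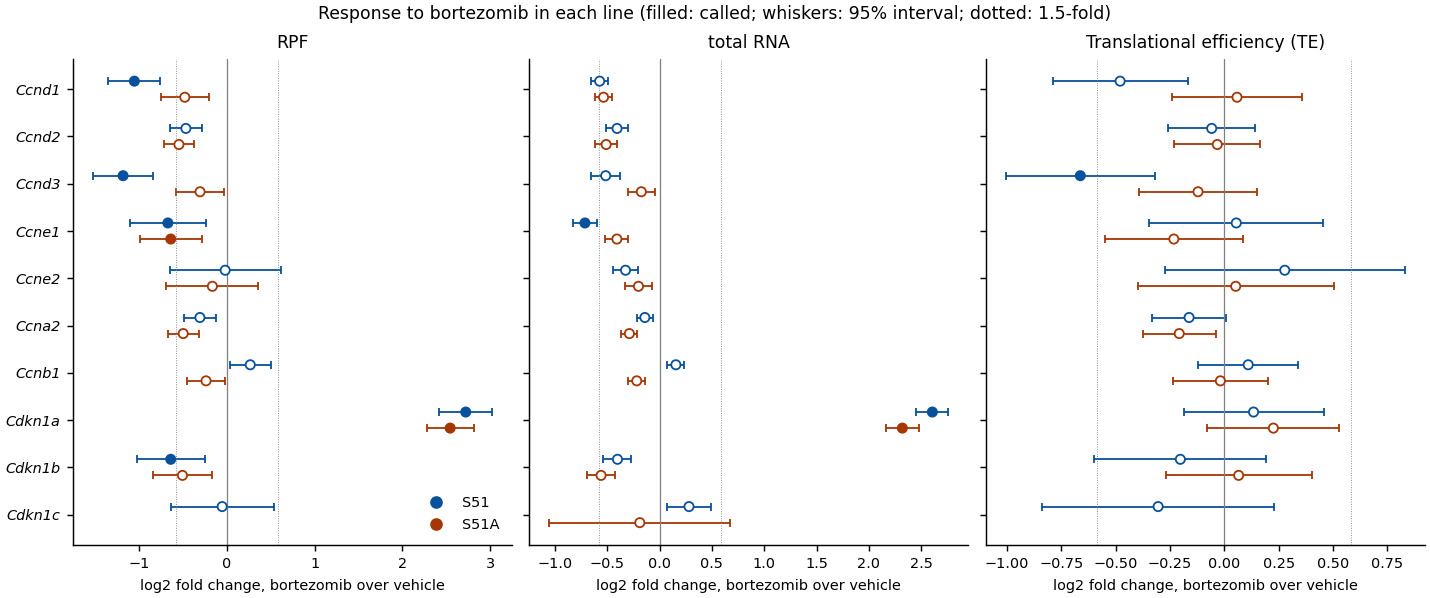
Log2 fold change, bortezomib over vehicle, of each gene in S51 and S51A for RPF, total RNA and TE, with 95% intervals as whiskers and filled points for called changes. Cdkn1a stands alone on the right in RPF and total RNA, and Ccnd3 in S51 is the only filled point in TE; Cdkn1c of S51A is drawn for total RNA only.

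The kinase partner of the D-type cyclins and the proteins downstream of it were examined as lists. Over all genes bortezomib gave RPF calls of 7.38% higher and 11.2% lower in S51, and 4.19% higher and 6.67% lower in S51A. Of 12 CDKs and enzymes that activate or inhibit them, Cdk4 was called lower in RPF in S51 at -0.61, and Wee1, the kinase that holds CDK1 inactive, was lower in S51A at -1.03. Wee1 total RNA was lower in both lines, at -0.79 and -0.95, where 9.59% and 8.55% of all genes were called lower. Of 12 tested members of the RB and E2F family, 3 were lower in RPF in S51, E2f8 at -1.15, E2f4 at -1.12 and E2f1 at -0.84, where 11.2% of all genes were called lower. In S51A E2f8 was lower at -1.04 and E2f6 higher at 0.77. Of the INK4 inhibitors, which bind CDK4 and CDK6 directly, Cdkn2b rose and Cdkn2d fell in both lines, Cdkn2b by 1.07 and 1.18 and Cdkn2d to -0.98 and -0.97 in RPF. Cdkn2a was lower in S51 than in S51A in RPF, at -0.67 under vehicle and -0.76 under bortezomib.

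Between the lines, 3 of the 10 genes were called in RPF under vehicle, all higher in S51. Over all genes 15.8% were called there in either direction and 6.63% higher. Under bortezomib 4 of the 10 were called, where 17.7% of all genes were called in either direction. Cdkn1c, which passed the filter through S51 alone, is 1 of the genes in each count, and without it 2 and 3 were called. They were Ccnd2 and Cdkn1c with either treatment, Ccnd1 under vehicle, and Ccna2 (higher) and Ccnd3 (lower) under bortezomib. The Ccnd1 difference under vehicle, 0.61 ± 0.14, dropped to 0.31 without S51 vehicle replicate 2 and to 0.58 without S51A vehicle replicate 4, below the fold each time. The Ccnd3 difference under bortezomib was -0.94 ± 0.16 (adjusted p = 0.00011). Neither Ccnd1 under bortezomib (0.03, -0.25 to 0.31) nor Ccnd3 under vehicle (-0.06, -0.35 to 0.22) differed detectably between the lines. In total RNA Ccna2, Ccnd2 and Cdkn1c were called with either treatment, 3 of the 10 all higher in S51, beside 6.29% of all genes called higher under vehicle and 8.23% under bortezomib. Cdkn1c passed the total RNA filter through S51 alone too, and without it 2 genes were called with either treatment. The other 5 genes gave no call between the lines. Cdkn1b total RNA was lower in S51, at -0.39 under vehicle and -0.23 under bortezomib, and Ccne1 at -0.12 and -0.43. Ccne2 was higher at 0.33 and 0.20, and Ccnb1 at 0.10 and 0.47. In RPF the differences under vehicle and bortezomib were -0.07 and -0.21 for Cdkn1b, -0.40 and -0.43 for Ccne1, -0.35 and -0.21 for Ccne2, -0.11 and 0.40 for Ccnb1, and 0.26 and 0.44 for Cdkn1a. Of these RPF values, those of Ccnb1 and Cdkn1a under bortezomib had an adjusted p below 0.05, at 0.0061 and 0.0069.

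The E-type cyclins gave unlike results. Ccne1 RPFs fell after bortezomib in both lines. Its RPF level was 36.4, 28.9 and 29.6 CPM in S51 vehicle and 17.4, 22.0, 24.9 and 13.98 CPM in S51 bortezomib, without overlap, and 54.5, 44.7, 29.8 and 38.9 CPM against 25.1, 26.7, 31.1 and 25.1 CPM in S51A, where 1 vehicle library lay among the treated ones. The fold was 1.59 in S51 (adjusted p = 0.019) and 1.56 in S51A (adjusted p = 0.010), and both calls depend on single libraries. Without S51 vehicle replicate 2 the S51 value was -0.71. Without S51 bortezomib replicate 4 or S51 vehicle replicate 1 it was -0.53 and -0.56 (adjusted p = 0.078 and 0.077), and without S51A vehicle replicate 1 the S51A value was -0.52 (adjusted p = 0.041).

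Total RNA of Ccne1 was 41.1, 39.2, 37.6 and 38.3 CPM in S51 vehicle and 25.3, 23.3, 23.95 and 22.6 CPM in S51 bortezomib. In S51A it was 42.8, 40.8, 43.3 and 43.1 CPM and then 34.0, 33.4, 31.4 and 29.1 CPM. The S51 change of -0.71 ± 0.06 was called and was, with Cdkn1a, 1 of the 2 total RNA calls among the 10 genes in that line, where 15.3% of all genes were called. In S51A Cdkn1a was the only call of the 10, where 13.1% of all genes were called in either direction and 4.54% higher. Ccne1 was at -0.41 ± 0.05 in S51A. The responses differed by -0.31 (-0.46 to -0.15, adjusted p = 0.0057), under the fold.

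Ccne2 gave no call. Its RPF change was -0.02 (-0.65 to 0.61) in S51 and -0.16 (-0.69 to 0.36) in S51A, at levels of 5.79 to 26.6 CPM that leave a wide interval. Its lowest value was again that of S51 vehicle replicate 2. In total RNA, where the interval is narrower, the changes were -0.33 ± 0.06 in S51 and -0.20 ± 0.06 in S51A. Its TE difference between S51 and S51A under vehicle was -0.63 ± 0.23 (adjusted p = 0.24). That difference was -0.34 without S51 vehicle replicate 2 and -0.99, called, without replicate 3.

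Ccna2, the S and G2 phase cyclin, was higher in S51 than in S51A. Total RNA was 312, 332, 325 and 341 CPM in S51 vehicle against 194, 196, 204 and 214 CPM in S51A vehicle, 1.62-fold (adjusted p = 3.9e-14). Under bortezomib it was 297, 294, 300 and 296 against 169, 156, 166 and 170 CPM, 1.80-fold (adjusted p = 1.2e-15). RPF differed 1.37-fold under vehicle, below the call, and 1.57-fold under bortezomib (adjusted p = 7.2e-06). With bortezomib Ccna2 gave no call, at -0.31 in S51 and -0.50 in S51A in RPF and at -0.14 and -0.29 in total RNA. The total RNA responses differed by 0.15 ± 0.05 (adjusted p = 0.042).

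Ccnb1, which drives entry into mitosis, was the one cyclin of the 7 whose total RNA passed the adjusted p in opposite directions in the 2 lines. It was 241, 231, 249 and 240 CPM in S51 vehicle and 263, 256, 293 and 256 CPM in S51 bortezomib, and 221, 221, 229 and 226 CPM in S51A vehicle and 185, 192, 196 and 196 CPM in S51A bortezomib. No treated library overlapped its vehicle group. The changes were small, at 0.15 ± 0.04 in S51 (adjusted p = 0.0014) and -0.22 ± 0.04 in S51A (adjusted p = 4.1e-05). The S51 value was 0.00 when libraries were scaled by their sizes alone. The difference between the responses was 0.37 (0.26 to 0.49, adjusted p = 4.3e-05), a 1.30-fold effect, and lay between 0.33 and 0.39 under the alternatives run for total RNA.

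RPF of Ccnb1 followed the same order with more spread. It was 301, 214 and 322 CPM in S51 vehicle and 346, 304, 370 and 324 CPM in S51 bortezomib, and 292, 295, 300.2 and 317 CPM in S51A vehicle and 272, 242, 273 and 235 CPM in S51A bortezomib. The responses were 0.27 (adjusted p = 0.079) and -0.24 (adjusted p = 0.11), and they differed by 0.50 (0.18 to 0.82, adjusted p = 0.084). This difference was 0.35 (adjusted p = 0.046) without S51 vehicle replicate 2 and 0.60, called, without replicate 3. Without S51 vehicle replicate 2 the responses were 0.12 in S51 (adjusted p = 0.31) and -0.24 in S51A (adjusted p = 0.0070), both under the fold. A TE change of Ccnb1 was not detectable in either line, at 0.11 (-0.12 to 0.34) and -0.02 (-0.24 to 0.20).

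Genes of mitosis, a list fixed with earlier results known, were compared with Ccnb1. Of 26 tested, 7 had a called difference of the responses in total RNA and 5 in RPF, all more positive in S51, and the median difference was 0.47 in total RNA and 0.51 in RPF, beside -0.0026 and 0.013 over all genes. Over all genes 2.09% and 1.86% were called in either direction, and 1.34% and 0.878% higher. Cenpf, a kinetochore protein, differed by 0.84 in total RNA and 1.11 in RPF. Top2a, the topoisomerase that untangles sister chromatids, differed by 0.77 and 0.82, and Cenpe, a kinetochore motor, by 0.66 and 0.93. Within lines, Hmmr, a spindle protein, rose in S51 by 1.196 in RPF and 0.66 in total RNA, and Plk1, a mitotic kinase, fell in S51A to -0.70 and -0.59. The count of called RPF differences was 0 without S51 bortezomib replicate 3, 5 without S51 vehicle replicate 2 and 11 without S51 vehicle replicate 3, with the median between 0.45 and 0.56. The total RNA count lay between 0, with a fold above 2, and 8 under the alternatives. Genes closest to Ccnb1 in total RNA over the 16 libraries were Kif11, Tpx2 and Hp1bp3, with Pearson r of 0.977, 0.972 and 0.971; for Ccnd1 they were Cdkn2aipnl, Rasa3 and Ppan, at 0.991, 0.985 and 0.984.

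**Figure D5:**
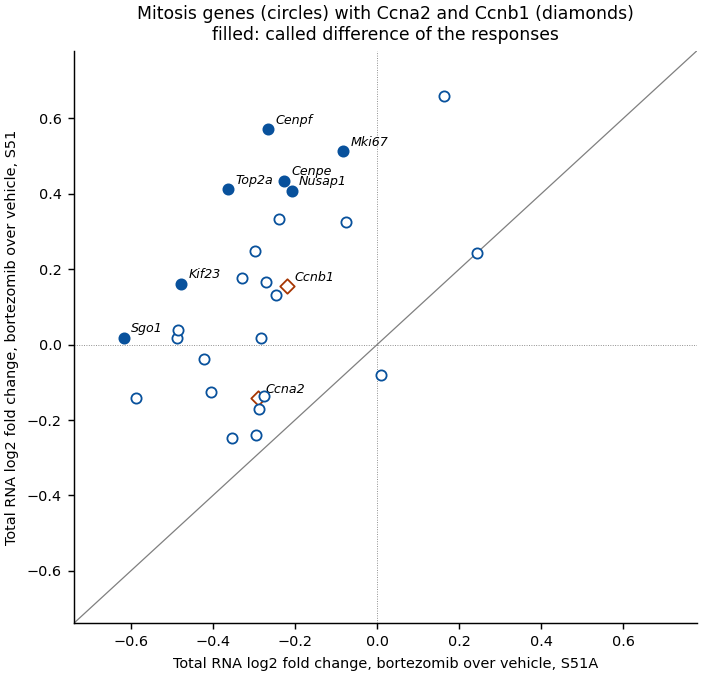
Total RNA log2 fold change, bortezomib over vehicle, in S51A (horizontal) and S51 (vertical) for 26 mitosis genes (circles) and for Ccna2 and Ccnb1 (diamonds), with the line of equality. Filled symbols mark the 7 genes whose responses differed by the call; 25 of the 26 mitosis genes have a more positive value in S51, 1 of them almost on the line.

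Promoters of such genes are known to carry CCAAT boxes and the CHR element, TTTGAA. In the RefSeq promoter table (GRCm38.p6, 250 bases before to 50 after the start), which held 5 of the 10 genes, CCAAT on either strand was found in 41.1% of 27025 genes and in 17 of 21 mitosis genes, and TTTGAA in 20.2% and in 14 of 21. The Ccnb1 promoter held CCAAT 2 times, starting 99 and 67 bases before the start site, and no TTTGAA in this window. Both stretches are shown, on the gene's strand, with CCAAT in capitals, the first at chr13:100786569-100786596 and the second at chr13:100786537-100786564 on the minus strand.
Ccnb1 distal: aacccgcggcgCCAATgggaagagagcg
Ccnb1 proximal: ccacgaactggCCAATgaggagcgagcg
CCAAT was also found in the promoters of Ccnd3 and Cdkn1b, and not in those of Ccne1 and Cdkn1a.

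Other lists of the cycle were read against the same shares, 18.6% of all genes called in RPF in S51 and 10.9% in S51A. Of 32 DNA replication genes, bortezomib raised 1 and lowered 3 in RPF in S51 and lowered 2 in S51A. Cdt1, which licenses replication origins, was lower in both lines, at -0.93 and -0.62, and higher in S51 than in S51A, at 1.43 under vehicle and 1.12 under bortezomib. Of 29 subunits of the ubiquitin ligases that act on cyclins and their inhibitors, 2 were higher and 4 lower in RPF in S51 and 2 lower in S51A. Fbxo5, the inhibitor of the anaphase-promoting complex, was lower at -0.80 in S51 and -1.70 in S51A, and its responses differed by 0.89. Skp2, the ligase subunit that recognizes p27, was lower in S51 at -0.76. Of 6 other cell cycle cyclins tested, Ccng1, itself a p53 target, rose by 1.09 and 1.14, Ccnj fell in S51 to -2.06, and Ccng2 was lower in S51 than in S51A, at -2.69 under vehicle. Of 7 cyclins that act in transcription, Ccnt1 was called in S51 at 0.67 and none in S51A.

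Across the 10 genes, TE was called 1 time in S51 and 0 times in S51A, between the lines and for the difference of the responses, where 0.987%, 0.0849% (vehicle), 3.08% (bortezomib) and 1.29% of all genes were called. Cdkn1c is among the 10 in these counts, although no TE can be stated for it in S51A. At an unadjusted p below 0.05, the TE of Ccna2 stood out in S51A, those of Ccna2 and Ccne2 between the lines under vehicle, those of Ccna2 and Ccnd3 under bortezomib, and those of Ccnd1 and Ccnd3 for the difference of the responses, leaving aside Cdkn1c. DESeq2 called none of them. No called difference of the responses was found among the 10 genes in total RNA, where 2.09% of all genes were called, and there 4 genes had an adjusted p below 0.05 without reaching 1.5-fold, 5 had an unadjusted p below 0.05 and DESeq2 called 0. The comparisons of bortezomib with vehicle, between the lines and of the responses share their vehicle libraries. Annotated genes overlap 5 of the 10 (Ccna2, Ccnd1, Ccnd2, Ccnd3 and Ccne2), and whether reads were counted by strand is not given in the sources used here.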

How the data were processed

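RPFs and total RNA of the same lysates were sequenced, and the authors deposited raw counts per gene for each library. Per the study's methods, adapters were clipped with FastX, reads were aligned to mm10 with Bowtie2, and RPFs were counted over coding sequence without the first 15 and last 5 codons. The labels also name featureCounts and DESeq2, and versions are not given in the sources used here. Column titles of the S51 bortezomib and S51A vehicle groups are exchanged, as a note of the series states, and columns were assigned by that note, with which the study's own column names matched for 31 of 31 libraries. Gene IDs had a symbol for 20687 of 20704 and 24569 of 24593 genes.

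The deposited counts were tested with edgeR 4.0.16 (R 4.3.3) after TMM scaling and a filter (minimum count 10, total 15), in 1 fit per readout over all groups. Calls needed an adjusted p below 0.05 and a fold above 1.5. DESeq2 1.42.0, limma 3.58.1 on log2 ratios, other scalings, filters and fold limits, blocks, and leaving out each library were alternatives. Intervals are 95% intervals of the fit. The floor for a count of 0 was 3 counts per library.

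The rule names all 10 genes in the comparisons, with Eif2s1, the called genes of each pathway list up to 3 per direction, and the 3 genes most correlated with Ccnd1, Ccnb1 and Cdkn1a. Genes and lists were chosen with earlier results of these data known. On simulated data with 200 genes changed by 1 log2 unit for the S51 bortezomib comparison, 71.6% were recovered in RPF (9331 genes), 100% in total RNA (11577 genes) and 72.1% in TE (9286 genes). The simulation used 1 fixed spread per kind of library and held no library set apart from its group, so that these shares describe cleaner data than those tested.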

Additional observations from a re-analysis of the deposited data

Results flagged for a closer look

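The response to bortezomib differed between S51 and S51A, by the test of the difference, for 4 of the 10 genes in total RNA: Ccnb1 at 0.37, Ccna2 at 0.15, Ccnd3 at -0.34 and Ccne1 at -0.31 on the log2 scale, each under 1.5-fold. In RPF it differed for Ccnd3, at -0.88.

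Among 70 groups of 4 libraries, of which chance sets 1 library apart in about 1 of 20, 2 held a library far from the others. Total RNA of Ccnd2 in S51 bortezomib replicate 1 was 341 CPM, with the nearest library at 298 CPM. RPF of Ccne2 in S51 bortezomib replicate 2 was 9.55 CPM, with the nearest at 18.9 CPM.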

How the results depend on the processing

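Of 4212 values of single genes recomputed under the alternatives, 4161 stayed on the same side of the call, 97 of them uncalled values that changed sign, while 31 lost the call, 20 gained it and 0 called values reversed. Most of the 4212 values belong to results not called in the main fit, so that the pooled count says little of how stable the calls are. RPF depth limits Ccne2 and Cdkn1c most.

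Counts of the 10 genes called moved as follows. With a fold above 2 they were 3 and 1 for RPF in S51 and S51A, 1 and 1 between the lines under vehicle and bortezomib, 0 for the RPF response difference, and 1 for total RNA in S51 and 1 and 1 between the lines. With library sizes alone they were 4 and 4 for total RNA in S51 and S51A and 0 for TE in S51; the added calls were Ccnd1 (-0.73) and Ccnd3 (-0.67) in S51 and Ccnd1 (-0.65), Ccnd2 (-0.63) and Cdkn1b (-0.68) in S51A. Without the filter the RPF response difference gave 2. With only the compared groups TE in S51 gave 0. Leaving out 1 library gave 4 to 5 and 1 to 3 for RPF in S51 and S51A, 2 to 3 and 4 to 4 between the lines under vehicle and bortezomib, and 0 to 3 for the difference. In total RNA it gave 2 to 4 and 1 to 2, 3 to 3 between the lines and 0 to 0. In TE it gave 0 to 2 and 0 to 0, 0 to 2 and 0 to 0 between the lines, and 0 to 1. The cause of these changes was not tested beyond what the settings fix.

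Over all genes, a fold above 2 cut the calls in RPF from 1757 to 688 in S51, 1027 to 356 in S51A, 1496 to 556 and 1672 to 622 between the lines, and 176 to 47 for the difference. In total RNA it cut them from 1790 to 584, 1533 to 489, 2053 to 922, 2337 to 970 and 245 to 56. At least 10 counts in every RPF library left 992 of 1496. TE between the lines under vehicle gave 8 calls, 0 with only the groups compared, 2 with the lysate block and 31 with DESeq2. The TE response difference gave 122, 64 with the lysate block, 207 with DESeq2 and 16 with limma. Leaving out 1 library gave 99 to 383 for the RPF difference, 385 to 865 for TE in S51, 78 to 280 for the TE difference and 4 to 380 for TE between the lines under vehicle. Library sizes alone moved the share of higher calls from 37.3% to 19.4% in total RNA of S51, 34.7% to 20.7% of S51A, 64.1% to 51.2% of the difference, 19.7% to 61.5% in TE of S51, 17.9% to 47.4% of TE between the lines under bortezomib and 16.4% to 37.8% of the TE difference, and the median of all genes by -0.16 and -0.13 in total RNA of S51 and S51A and 0.15 in TE of S51.

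Libraries of 1 replicate number deviated together in total RNA, with r from 0.0021 to 0.19 and a median of 0.092. Pairs of unlike number had a median of -0.034, and 15 of 16 libraries correlated best with their own number. In RPF r ran from -0.16 to 0.26, with a median of 0.03 beside -0.02 for unlike numbers, and 11 of 15 libraries did so. The main fit nevertheless took no pairs, and the replicate number entered as a block in 1 alternative. With the replicate block 5, 2, 2, 4 and 1 of the 10 genes were called in RPF, for S51, S51A, the lines under vehicle and bortezomib, and the difference, 2, 1, 3, 3 and 0 in total RNA and 1, 0, 0, 0 and 0 in TE. The changed call was Ccnd1 between the lines under vehicle, at 0.58.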
